A study of Saccharomyces cerevisiae BY4741 with 16 samples.

Results

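The H3K36me3 late step is the change in trimethylation of histone H3 at lysine 36 from 20 to 60 min after rapamycin, measured gene by gene in budding yeast from which RNA polymerase II (RNAPII) was being removed. Its members are the genes of the deposited table with a value for both marks at every time, 5218 in all, and each was described by the log2 ratio of its 60 min level over its 20 min level, with the 40 min level as the point between. Of these, 4873 passed a filter on low levels and enter the comparison, and the other 345 lay below it. Per the series design, the study followed H3K4me3 and H3K36me3 at intervals of 20 min after RNAPII left the nucleus by anchor-away, a method in which rapamycin couples a tagged protein of the nucleus to an FKBP12 domain on a ribosomal protein, whose export carries it into the cytoplasm. The labels list 16 chromatin immunoprecipitation libraries, 8 of precipitated DNA and 8 of input DNA, with 1 of each per mark and time. The comparison rests on the precipitated H3K36me3 groups at 20, 40 and 60 min, with 1 library each, so no value below has a replicate check, no p-value can be given, and each difference is one between libraries. The 0 min library is not used.

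By their labels all 3 groups share the strain BY4741 Anchor-Away in log phase in YPD, 1 ug/mL of rapamycin, and cells of *Schizosaccharomyces pombe* added at 25% as a spike-in. The genotype label gives the mating type MATa, the auxotrophic alleles his3D1, leu2D0 and ura3D0, the tor1D1 mutation, the deletion fpr1D and the anchor RPL13-2xFKBP12-NATMX6. It names no tagged subunit of the polymerase, so the removal of RNAPII is taken from the series design. *FPR1*, deleted per that label, was below the filter but not at 0, with H3K36me3 levels of 0.0335, 0.240 and 0.185 at 20, 40 and 60 min. Its H3K4me3 levels were 1.34, 3.86 and 1.04, highest in the 40 min library. A deleted gene should have no signal, so whether each library comes wholly from the labelled strain is uncertain and was not tested. For H3K36me3 the *FPR1* level was also higher at 60 than at 20 min, by a fold of 4.63. The doubt thus touches values at every time below, with the 60 over 20 min changes among them.

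H3K36me3 is placed along gene bodies by Set2, a methyltransferase that travels with elongating RNAPII bound to the phosphorylated repeats of its largest subunit. The mark is read by the Rpd3S deacetylase through Eaf3 and Rco1 and by the chromatin remodeller Isw1b through Ioc4, which keep internal start sites silent behind the polymerase, and it is removed by the demethylase Rph1 and diluted by new histones. H3K4me3 marks the starts of the same genes and is placed by Set1 in COMPASS.

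Most genes had less H3K36me3 at 60 than at 20 min on the deposited scale. The median level over all genes was 0.824 at 20 min, 0.852 at 40 min and 0.700 at 60 min, so it was lowest in the 60 min library and slightly highest in the 40 min one. Per gene, the median change of 60 over 20 min was -0.23 on the log2 scale, which puts the median gene at 85.4% of its 20 min level. The middle 50% of genes lay between -0.41 and -0.03, and 3862 genes, 79.3%, were lower at 60 than at 20 min. The 2 steps differed in sign, with a median of 0.05 for 40 over 20 min and of -0.28 for 60 over 40 min. A level highest at 40 min was the commonest order, in 53.9% of genes, and 35.2% had a lower level at each later time.

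Whether the levels were divided by gene length is not stated, so an order of levels between genes may also follow their length. The size and sign of the common change depend on how the libraries are scaled. After scaling each library to the same total over genes, the median change was -0.02, a shift of 0.21, and 53.0% of genes were lower at 60 min. After scaling to the lowest 5% of genes it was 0.13, a shift of 0.36, and 31.5% were lower. Which scaling the authors used is not stated. Changes below are therefore set against the median gene, as the log2 change of the gene less the median log2 change of -0.23, which a scale factor per library moves very little. A gene is called higher or lower when this relative change is 0.5 or more from 0, a fold of 1.41 from the median gene. On this rule 214 genes, 4.39% of those past the filter, were higher and 236, 4.84%, were lower, while 62.2% lay within 0.25 of the median gene. Some called genes lay below the filter level of 0.199 at 20 min, as *NDE2* did, or at 60 min, as *MSS2* did. Such genes passed the filter only through the times at which they were higher, and the counts and shares of calls below include them. At the edges of the rule, *GFA1* at 0.5001 was called higher and *MRM2* at 0.4980 was not, and *TIM10* at -0.5003 was called lower and *YIR042C* at -0.4991 was not.

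As deposited, the median change was 0.38 over the 214 genes called higher and -0.85 over the 236 called lower, values that the calling rule used and that are given as a description. The genes called higher sat at a median percentile of 40.1 among all genes at 20 min, 54.2 at 40 min and 68.0 at 60 min, and those called lower at 47.3, 34.8 and 27.2. The order of the 20 and 60 min percentiles follows from the choice of these genes. The 40 min library, which the rule for calls did not use, held a relative level between the other times in 195 of the 214 genes called higher and in 203 of the 236 called lower, with a median of 58.9% and 53.9% of the relative change already present. Over all genes the relative 40 min level lay between in 40.2%, but a wide gap between 20 and 60 min leaves more room for it. Genes picked for such a gap would also have 40 min values near its middle without any order in time. The shares of 58.9% and 53.9% are therefore a description, and an order in time was not tested.

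*CCW12*, which encodes an abundant mannoprotein of the cell wall (chromosome XII, 369697 to 370098), had the largest gain among genes past the filter. Its H3K36me3 levels were 0.424, 1.18 and 1.42 at 20, 40 and 60 min, a change of 1.73 and a relative change of 1.95. It thus went past the median gene between 20 and 40 min. The sporulation gene *SPO24* had 0.531, 1.00 and 1.38, a relative change of 1.59, with the larger share of its gain at the first step. *SER3*, which encodes the first enzyme of serine synthesis and lies downstream of the noncoding *SRG1* transcript that represses it, had 0.985, 1.98 and 2.07, a relative change of 1.29. Most of it was present at 40 min. *SER3* overlaps 1 other annotated gene, so its reads may be shared.

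The other 9 of the 12 genes with the highest changes, among genes with a high mean level whose 40 min level relative to the median gene lay between, had relative changes of 0.82 to 0.93. That mean over the 3 times had to reach 0.840. At 20 min *CCW12*, *SPO24*, *YDR524C-B* and *BUB3* lay below 0.840, and *PRO1* just below it. These 5 met the condition only through the later times, where they were higher. *TSA1*, a thioredoxin peroxidase, had 1.03, 1.28 and 1.67 at 20, 40 and 60 min, and *ALD6*, the cytosolic aldehyde dehydrogenase that makes acetate, had 1.22, 1.45 and 1.95. Both gained more after 40 min than before. *BUB3* of the spindle checkpoint had 0.831, 1.32 and 1.34, and *PRY1*, a secreted sterol-binding protein, had 0.866, 1.28 and 1.39, so these 2 had the larger share of their gain by 40 min. *TAF9*, a histone-fold subunit shared by TFIID and SAGA, had 1.11, 1.48 and 1.77. Glutamine synthetase, *GLN1*, had 1.56, 1.89 and 2.35, and *PRO1*, the first enzyme of proline synthesis, had 0.840, 1.11 and 1.28. *ATG32*, the receptor for the autophagy of mitochondria, had 0.878, 1.12 and 1.34, and the short gene *YDR524C-B* had 0.743, 1.19 and 1.16. The 20 min levels of these 9 genes ran from 0.743 for *YDR524C-B* to 1.56 for *GLN1*.

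**Figure D1:**
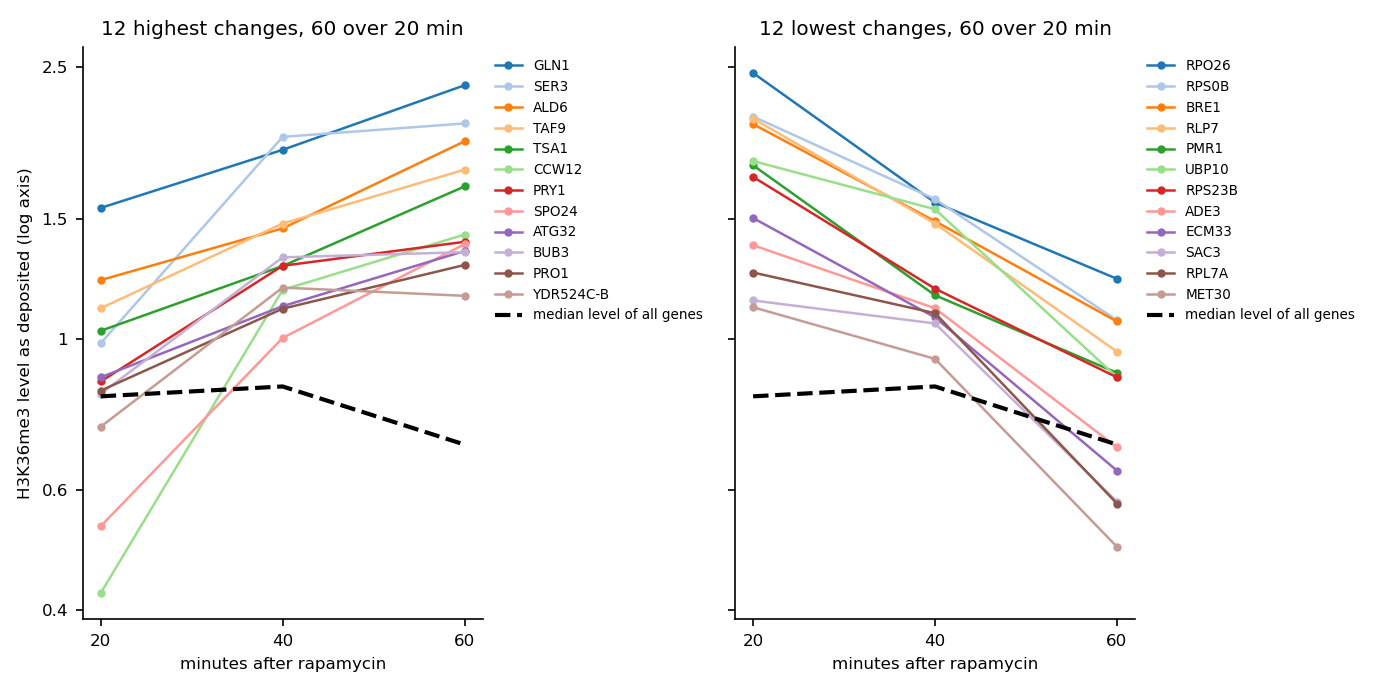
H3K36me3 levels as deposited (log axis) against minutes after rapamycin for the 12 genes with the highest (left) and the 12 with the lowest (right) change of 60 over 20 min by the naming rule, 1 library per time, with the median level of all genes dashed. CCW12 climbs steepest, to 1.42 at 60 min against 0.424 at 20 min, and on the right RPO26 lies highest at both ends, with 1.22 at 60 min against 2.45 at 20 min.

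The 12 lowest changes by the same rule had relative changes from -0.73 to -0.99. All 12 genes stood above the median level at 20 min, which follows from choosing genes with a high mean and a fall. At 60 min *ECM33*, *MET30*, *RPL7A*, *ADE3* and *SAC3* lay below the required mean of 0.840, so they met it through the earlier times. *ECM33*, another cell wall gene, which encodes a glycolipid-anchored protein (chromosome II, 393123 to 394742), had 1.503, 1.08 and 0.641 at 20, 40 and 60 min, a change of -1.22 and a relative change of -0.99. It was lower at each step. *RLP7*, which acts in the assembly of the large ribosomal subunit, had 2.102, 1.48 and 0.958, and the ribosomal protein gene *RPL7A* had 1.25, 1.09 and 0.574. *RPL7A* overlaps 1 other gene. *MET30*, the F-box protein of a ubiquitin ligase, had 1.11, 0.935 and 0.496, most of its loss after 40 min, as had *SAC3* of the mRNA export complex TREX-2, with 1.14, 1.05 and 0.577. In contrast, the Golgi calcium pump *PMR1*, with 1.80, 1.16 and 0.892, and *RPO26*, a subunit shared by RNA polymerases I, II and III, with 2.45, 1.58 and 1.22, had most of theirs by 40 min. *PMR1* also overlaps 1 other gene.

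*BRE1* and *UBP10* were both among these 12. *BRE1*, the ligase that places ubiquitin on histone H2B ahead of H3K4 methylation, had 2.06, 1.49 and 1.06 at 20, 40 and 60 min. *UBP10*, a protease that removes it, had 1.82, 1.55 and 0.879. The remaining genes were *ADE3*, of one-carbon metabolism, with 1.37, 1.11 and 0.694, and the small-subunit ribosomal protein genes *RPS0B*, with 2.12, 1.602 and 1.06, and *RPS23B*, with 1.73, 1.18 and 0.878.

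Without the conditions on level and on the 40 min value, *TOP1*, DNA topoisomerase I, had the lowest relative change of all genes past the filter and is named after its values were seen. Its levels were 1.52, 0.530 and 0.399, a relative change of -1.68, and nearly all of it was present at 40 min. *SMC5* of the Smc5/6 complex, with 0.683, 0.467 and 0.246, and *CDC39*, the scaffold of the Ccr4-Not complex, with 1.10, 0.920 and 0.430, also chosen after the fact, were 1 or more below the median gene.

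Ribosomal protein genes were lower relative to other genes, those of the small subunit most. Of 56 genes for 40S proteins, 42 lay below the median gene, 12 were called lower and 1 higher, and the list median was -0.25. A share of 21.4% called lower stands beside 4.84% of all genes. The median level of the list was 1.58, 1.601 and 1.08 at 20, 40 and 60 min, so it was held to 40 min, and at 60 min the level of 50 members was under that at 20 min. *RPS2* alone was called higher, with 2.22, 2.93 and 2.87, and *RPS8B*, the highest in level, stayed near the median gene with 3.598, 3.04 and 2.999. Of the 60S list, 79 of 80 genes passed the filter, 52 lay below the median gene, 7 were called lower, 8.86%, and none higher, and the median was -0.17. *RPL7A* was the lowest of them, at -0.89, and *RPL9B* the highest, at 0.39, with levels of 2.09, 2.44 and 2.34. *RPL24B*, the highest in level, had 2.89, 3.70 and 2.18, a peak at 40 min.

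Most ribosomal proteins are encoded by a pair of near-identical copies, and how reads were placed between copies is not given in the sources used here, so values of single copies are uncertain. Over 57 pairs, both copies lay below the median gene in 32, both above in 7 and 1 on each side in 18. The copies were a median of 0.30 apart and 0.5 or more apart in 6 pairs. *RPS28A* and *RPS28B* were furthest apart, at 0.38 and -0.52. *RPL13A* and *RPL13B*, of which the label marks RPL13 as the anchor without a letter, had relative changes of -0.13 and -0.34, from 1.205, 1.21 and 0.939 and from 1.42, 1.30 and 0.956.

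**Figure D2:**
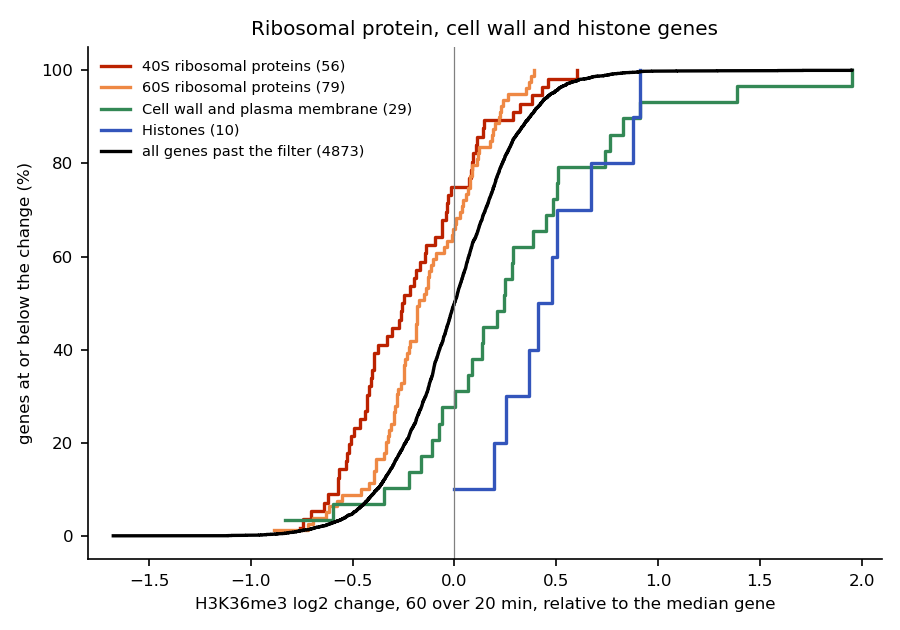
Share of genes (%) at or below each H3K36me3 log2 change of 60 over 20 min relative to the median gene, for 4 gene lists and for all 4873 genes past the filter. The 40S and 60S curves lie left of that of all genes over most of their length, with 42 of 56 and 52 of 79 members below 0, and the cell wall and histone curves lie right of it over most of theirs.

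Other genes of protein synthesis lay closer to the median gene. The 113 ribosome biogenesis genes had a list median of -0.04 with 3 called lower and 3 higher, 2.65% each, beside 4.84% and 4.39% of all genes. The 36 translation factors had a list median of -0.07 with 4 called lower, 11.1% beside 4.84% of all genes. Among these 4, *EFB1*, an exchange factor of elongation, had 1.47, 1.43 and 0.783, with its loss after 40 min. *TIF1* had 0.305, 0.209 and 0.158 and *TIF2* had 2.17, 2.16 and 2.06. These 2 genes are near-identical copies that encode the same initiation factor, so their values are uncertain. The 20 cytosolic tRNA synthetase genes had a median of -0.01 and the 50 mitochondrial ribosomal protein genes 0.04.

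The transcription machinery itself was divided. Of 43 genes for general factors of RNAPII and Mediator, 38 passed the filter, 26 lay below the median gene and 7 were called lower, a share of 18.4% beside 4.84% of all genes, with a list median of -0.13. *NUT2* of Mediator was lowest, with 0.384, 0.232 and 0.182 at 20, 40 and 60 min. *SSL2*, the translocase of TFIIH, was the 1 gene called higher, with 1.10, 1.57 and 1.5, while *SPT15*, the TATA-binding protein and highest in level, had 2.45, 2.42 and 2.48. For H3K4me3, 29 of the 38 genes lay above its median gene. The 12 RNAPII subunit genes had a median of 0.06. *RPO26* at -0.77 and *RPC10* at -0.95, both for subunits shared with the other polymerases, were called lower, 16.7% beside 4.84% of all genes. *RPB7*, which joins Rpb4 in the stalk, was called higher at 0.57, with 1.21, 1.55 and 1.53. It was the 1 subunit gene called higher, 8.33% beside 4.39% of all genes. The largest subunit gene, *RPO21*, had 2.72, 4.01 and 2.93, a peak at 40 min.

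All 30 genes of the Set2 pathway and its readers analysed here passed the filter, 21 lay below the median gene and 4 were called lower, 13.3% beside 4.84% of all genes, none higher, with a list median of -0.09. The 4 were *RCO1* of Rpd3S (0.787, 0.629 and 0.399), *BUR2*, the cyclin of the Bur1 kinase (1.15, 0.755 and 0.616), *IOC4* of Isw1b (1.03, 0.717 and 0.569) and the demethylase *RPH1* (1.15, 0.888 and 0.636). All 4 were lower at each step. The gene of the methyltransferase, *SET2*, had 1.35, 1.61 and 1.23, a relative change of 0.09, so it moved as the median gene did. *EAF3*, which carries the chromodomain that binds the mark, had 0.898, 1.14 and 0.940, a relative change of 0.29. Apart from *SET2* these genes were chosen from the list after their values were seen. The 13 genes of COMPASS and H2B ubiquitination had a median of -0.08. *BRE1* and *UBP10* were the 2 called lower, 15.4% beside 4.84% of all genes, and none was called higher.

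Histone genes had the highest median of the 34 lists, 0.44 relative to the median gene. Of the 10 genes, 9 lay above the median gene, 4 were called higher, 40.0% beside 4.39% of all genes, and none was lower. The *HTA1* and *HTA2* genes for histone H2A gained most, with 0.339, 0.480 and 0.536 for *HTA1* and 0.363, 0.550 and 0.588 for *HTA2*. *HHF1* had 0.441, 0.697 and 0.602 and *HHF2* 0.391, 0.505 and 0.476, both for histone H4. The linker histone gene *HHO1*, highest in level, was at the median gene with 1.64, 1.46 and 1.40, and *HTZ1*, for the variant H2A.Z, had 1.23, 1.39 and 1.199. The H2A and H4 genes thus stood below the median level of all genes at 20 min and gained most. The list had a relative median of 0.21 in each of the 2 steps. Copies of each core histone gene are similar, so reads may be shared. For H3K4me3, which the rule did not use, all 10 genes lay above its median gene, with a list median of 0.31.

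The cell wall and plasma membrane list had members called in both directions and does not hold *ECM33*, described above as lower. Of 31 genes, 29 passed the filter, 21 lay above the median gene, 8 were called higher, a share of 27.6% beside 4.39% of all genes, and 2 lower, 6.90% beside 4.84%, with a list median of 0.24. Besides *CCW12*, the wall protein *PIR1* had 0.425, 0.699 and 0.962, a relative change of 1.39, and its relative *PIR3* had 0.320, 0.672 and 0.519. *PST1* had 0.296, 0.353 and 0.454, *TIP1* had 0.901, 1.29 and 1.31, and the chitin synthase *CHS2* had 1.19, 1.56 and 1.70. Several of these were among the less marked genes at 20 min. *PMA1*, the proton pump of the plasma membrane and highest in level, had 2.35, 3.53 and 2.74, and stayed just short of the call at 0.45. *PMP3*, a very short membrane protein gene, was lowest, with 0.948, 0.592 and 0.451, a relative change of -0.83.

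**Figure D3:**
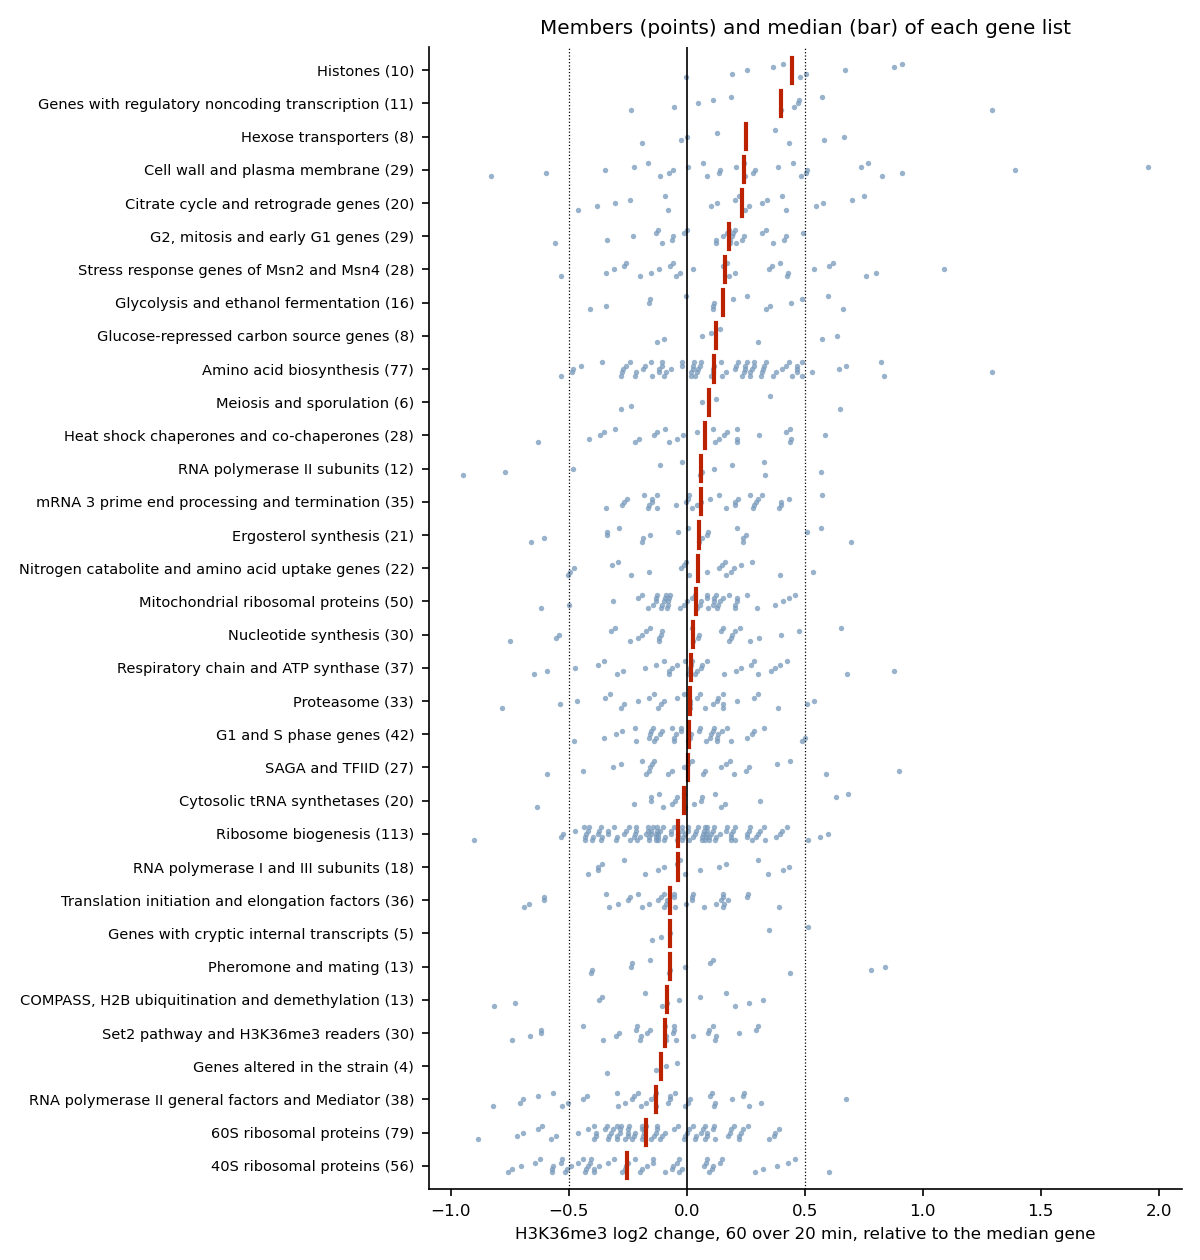
H3K36me3 log2 change of 60 over 20 min relative to the median gene for every member past the filter (points) of 34 gene lists, with the number of members in brackets, the list median as a bar and the distance of 0.5 dotted. Medians run from -0.25 for 40S ribosomal proteins to 0.44 for histones, and most lists have members on both sides of 0.

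The 16 glycolysis genes past the filter had a list median of 0.16, with 11 above the median gene and 2 called higher, 12.5% beside 4.39% of all genes, none lower. *TDH3*, the main glyceraldehyde-3-phosphate dehydrogenase gene, had 1.73, 2.82 and 2.34, with its gain by 40 min, and aldolase, *FBA1*, had 2.78, 3.52 and 3.6. *PGI1*, at the head of the pathway, was the lowest member with 2.23, 1.73 and 1.43. Of 22 citrate cycle and retrograde genes, 20 passed the filter, 14 lay above the median gene and 4 were called higher, a share of 20.0% beside 4.39% of all genes, with a median of 0.24. *CIT2*, the peroxisomal citrate synthase that is the standard target of the retrograde pathway, had 1.51, 2.31 and 2.17, a relative change of 0.75, and *MDH1*, mitochondrial malate dehydrogenase, was lowest with 0.258, 0.204 and 0.157. All 8 hexose transporter and sensor genes analysed here passed the filter. The transporter *HXT2*, with 0.514, 0.749 and 0.701, and the glucose sensor *RGT2*, with 1.22, 1.54 and 1.56, were the 2 called higher, and *GAL2* was lowest with 0.429, 0.355 and 0.320. The share called higher was 25.0% in this small list, beside 4.39% of all genes, and the list median was 0.25.

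Of 11 glucose-repressed genes analysed here 8 passed the filter, and their median was 0.12. In this small list 2 were called higher, 25.0% beside 4.39% of all genes, and none lower. *FBP1*, of gluconeogenesis, had 0.709, 0.919 and 0.943, *MDH2* had 1.75, 2.12 and 1.64 and *ACH1* 0.557, 0.488 and 0.435. Of 36 genes of the general stress response under Msn2 and Msn4, 28 passed the filter, 6 were called higher, a share of 21.4% beside 4.39% of all genes, and 1 lower, with a median of 0.16. With the filter at 50% instead of 25% this median was 0.0191, so it rests on the low-level members. Glucokinase, *GLK1*, had 0.284, 0.486 and 0.523, a relative change of 1.09, and hexokinase 1, *HXK1*, had 0.151, 0.219 and 0.229. At 20 min *HXK1* lay below the filter level of 0.199, so it passed only through the later times, where it was higher. *TPS1*, which makes trehalose phosphate, had 0.759, 0.874 and 0.997. *SPI1* was the gene called lower, with 0.279, 0.192 and 0.161, and *YGP1*, the highest in level, had 1.21, 1.39 and 1.17. *SPI1* passed the filter only through its 20 min level, since its later levels lay below 0.199. Most members of the stress list stood low in level, with a list median of 0.51 at 20 min, and *GLK1* overlaps 1 other gene.

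Of 80 amino acid synthesis genes 77 passed the filter, 52 of them above the median gene, 6 called higher and 1 lower, with a median of 0.11. The share of 7.79% called higher is not far from the 4.39% of all genes. Besides *SER3*, *PRO1* and *GLN1*, the genes called higher were methionine synthase, *MET6*, with 1.30, 1.44 and 1.73, *GDH3*, with 0.197, 0.220 and 0.272, and *GCN4*, the activator of the pathway, with 2.68, 3.65 and 3.31. *GLT1*, glutamate synthase, was the gene called lower, with 1.18, 0.771 and 0.696. *ILV5*, of branched-chain synthesis and highest in level, had 3.27, 3.72 and 3.64. *GLN1* and *GLT1*, which together turn ammonium into glutamate, thus stood on opposite sides.

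Genes known for regulatory noncoding transcription across or next to them had a list median of 0.40, with 11 of 12 genes past the filter, 9 of them above the median gene and 2, *SER3* and *NRD1*, called higher, 18.2% beside 4.39% of all genes. *NRD1*, which ends short noncoding transcripts and limits its own expression by early termination, had 2.15, 3.43 and 2.73, its gain all in the first step. *IME1*, the switch gene of meiosis, was lowest with 0.230, 0.275 and 0.165. The list's step of 40 over 20 min had a relative median of 0.31 and its step of 60 over 40 min one of 0.03. The G2, mitosis and early G1 list, with all 29 genes analysed here past the filter, had a median of 0.18, with 20 above the median gene. None was called higher and 1 lower, 3.45% beside 4.84% of all genes. That gene was the polo kinase *CDC5*, with 2.30, 2.04 and 1.33, while *HOF1*, of cytokinesis, had 1.25, 1.27 and 1.51 and the cyclin *CLB3*, highest in level, 2.53, 2.76 and 2.45.

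Of the other genes altered in the strain, *HIS3* had 1.28, 0.954 and 1.03, a relative change of -0.09 made of -0.47 for 40 over 20 min and 0.39 for 60 over 40 min, and *TOR1* had 0.956, 0.892 and 0.793, a relative change of -0.04. *LEU2* and *URA3*, also altered by the label, were not in the list of the strain's genes analysed here. The 20 lists with medians within 0.1 of the median gene included the proteasome, at 0.01, the respiratory chain, at 0.02, the G1 and S phase genes, at 0.01, and the heat shock chaperones, at 0.08. Some of these lists had members called in both directions, while others had calls on a single side or none. The proteasome had 2 genes called higher and 2 lower, 6.06% each, beside 4.39% and 4.84% of all genes. The G1 and S phase list had 1 called higher, 2.38%, and none lower. Of 21 ergosterol synthesis genes, 3 were called higher, 14.3% beside 4.39% of all genes, and 2 lower, 9.52% beside 4.84%. Among them *ERG3* had 1.39, 1.86 and 1.92 and was called higher, and *ERG6* had 1.70, 1.33 and 0.949 and was called lower, both chosen after their values were seen.

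H3K4me3 at the same genes, which the rule did not use, had a smaller median change between 20 and 60 min on the deposited scale. Its median change was -0.12 over 4821 genes, 92.0% of the 20 min level. The scaling of neither mark is stated, so the median changes of the marks may not be comparable. A total of 4658 genes passed the filters of both marks. Of these, 30 genes, 0.644%, were 0.5 or more above the H3K4me3 median gene and 28, 0.601%, were as far below. The Spearman correlation between the relative changes of the marks was 0.24 across genes, and genes are not replicates of each other. The marks came from separate precipitations, and whether they share cultures is not given in the sources used here. Among H3K36me3 genes called higher, 125 of 179 past both filters, 69.8%, lay above the H3K4me3 median gene, and among those called lower 67 of 225, 29.8%, beside 49.9% of all genes.

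The few genes with a large H3K4me3 change overlapped those of H3K36me3 in the same direction. In all, 22 genes were called higher for both marks, which is 73.3% of the H3K4me3 calls and 12.3% of the H3K36me3 calls, and 13 were called lower for both, 46.4% and 5.78%. These stand beside 179 genes called higher and 225 called lower for H3K36me3 among the 4658. None was called in opposite directions, where the small number of H3K4me3 calls leaves room for few genes. *CCW12* had H3K4me3 levels of 2.30, 5.89 and 6.13 at 20, 40 and 60 min, *SER3* 2.99, 5.95 and 6.18, *SPO24* 4.29, 6.03 and 7.26, and *PIR1* 1.13, 2.02 and 2.51. In each of these 4 genes both marks were higher at each later time. *CIT2*, *GLN1*, *GLK1*, *PRY1*, *HTA1*, *HXT2*, *NRD1*, *TIP1* and *PST1* were also higher for both, as was *MFA2*, for the a-factor pheromone. *NCE103*, carbonic anhydrase, had H3K36me3 levels of 0.422, 0.543 and 1.11, most of its gain after 40 min. On the lower side, *ECM33* had H3K4me3 levels of 4.56, 2.87 and 2.04, *TOP1* 3.71, 2.81 and 2.098, *RCO1* 1.95, 1.35 and 0.721, and *YAP1*, the regulator of the oxidative stress response, 8.85, 6.81 and 4.74. *RCO1* and *EFB1* each overlap 1 other gene. *EFB1*, *SWM1*, *RAD7* and the iron permease gene *FTR1* were lower for both marks too.

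**Figure D4:**
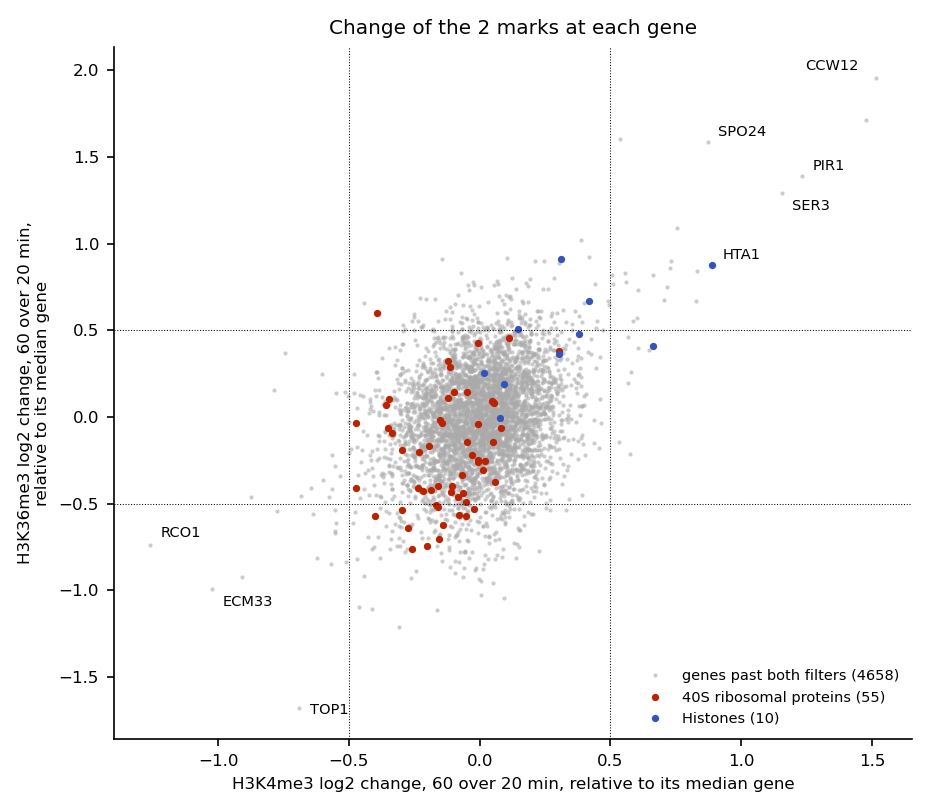
H3K36me3 against H3K4me3 log2 change of 60 over 20 min, each relative to its own median gene, for 4658 genes past both filters, with 40S ribosomal protein and histone genes in colour and the distance of 0.5 dotted. The upper right corner holds 22 genes and the lower left 13, and the other corners hold none.

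Most genes with an H3K36me3 change had no H3K4me3 change of that size. *RPS2*, called higher for H3K36me3, had H3K4me3 levels of 6.33, 5.90 and 4.43, a relative change of -0.39. *RPO26*, called lower, had 5.21, 5.55 and 5.61, a relative change of 0.23. Both moved the other way from H3K36me3, though short of the distance of 0.5. The 40S and 60S lists had H3K4me3 medians of -0.12 and -0.14, with 45 of 55 and 59 of 79 genes below the median gene, the same side as for H3K36me3.

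The relative change depended little on the length or position of a gene. The Spearman correlation was -0.06 with gene length over 4787 genes matched to the annotation and -0.04 with distance to the chromosome end, and the genes called higher and lower had median lengths of 1120.5 and 1213.5 bp beside 1263 bp for all. It followed the level more. The correlation was 0.15 with the 40 min H3K36me3 level, and the share of genes called lower was 8.62% in the lowest quintile by that level and 2.05% in the highest. The share called higher had no such order, with 5.03% in the lowest quintile, 2.97% in the middle one and 5.74% in the highest. By the 40 min H3K4me3 level, the shares called lower were 7.90% and 1.13%, and the share called higher was greatest in the lowest quintile, at 9.03%. The 40 min H3K36me3 level enters the filter, and the middle 50% of relative changes spanned 0.43 in the lowest quintile by that level and 0.34 in the highest. Ribosomal protein genes went against this order, being highly marked and lower, while the highest quintile as a whole had a median relative change of 0.08.

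**Figure D5:**
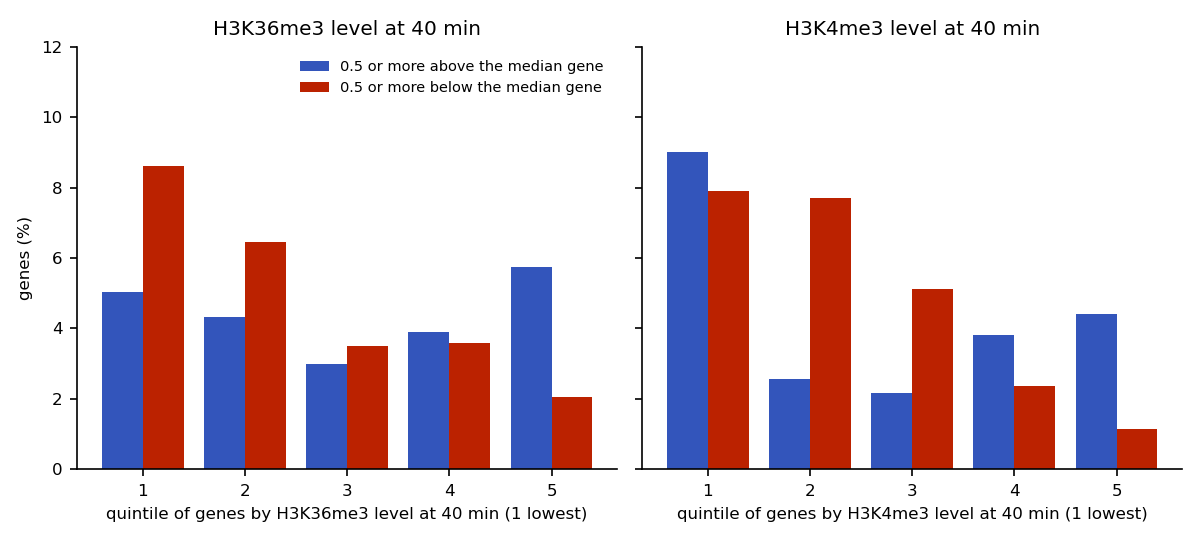
Percent of genes called higher and lower for H3K36me3, 60 over 20 min, in quintiles of genes by the 40 min level of H3K36me3 (left) or H3K4me3 (right), with bars from 0. The share called lower is 8.62% in the lowest and 2.05% in the highest H3K36me3 quintile.

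Neighbouring genes showed little likeness in their relative changes. Over 4006 adjacent pairs, the Spearman correlation between their relative changes was 0.05, and 12 pairs were both called higher, 15 both lower and 15 in opposite directions. Of all genes 4.39% were called higher and 4.84% lower, so some such pairs arise without any likeness, and the counts are only a description. Overlapping pairs were not left out and would count as under 100 bp apart. Genes under 100 bp apart were more alike where they ran in tandem, with a correlation of 0.56 over 26 pairs, than where they converged, with 0.15 over 136 pairs, and genes this close can share fragments. *AHP1*, a peroxiredoxin gene that lies next to *CCW12* and converges with it, was also called higher, with 1.33, 1.76 and 1.99, and is named after its values were seen.

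A small number of genes turned at 40 min by 0.5 or more in both steps relative to the median gene, 16 with a peak and 12 with a dip, all chosen by their values. *UTP9*, of ribosome biogenesis, had 0.908, 1.70 and 0.933, the repressor gene *RFM1* had 0.732, 1.28 and 0.612, and *BFR2* had 1.40, 2.19 and 1.03. *DSE3*, a daughter-cell gene, dipped, with 1.62, 1.06 and 1.32. None of the 4 genes named here was called for 60 over 20 min.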

How the data were processed

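Chromatin immunoprecipitation and input libraries were made per the labels. The authors deposited 1 table of linear signal levels per gene with a column for every combination of mark and time. The tools Bowtie2, SAMtools and bedtools and the builds sacCer3 and ASM294v2 come from the submitters' processing notes. Tool versions and roles, and any scaling to input, length or spike-in, were not given in the sources used here. Headings of the columns state only mark and time, and each was taken as the precipitated group. Depth is unknown, so no counting interval is given. Of 5222 lines, 3 were blank and 1 held no values. Systematic names matched 5115 genes of the R64 gene table, and the other 103 have no position here.

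A change was log2 of the level plus 0.00824 (1% of the median 20 min level) over the same at 20 min, which understates changes of low genes; genes needed a mean over 20, 40 and 60 min of at least 25% of the median of such means. A gene below the H3K36me3 filter level of 0.199 at some time could pass through the others. Examples are *HXK1*, *GDH3* and *MFA2*, below it at 20 min, and *SPI1*, *MDH1*, *NUT2*, *TIF1* and *IME1*, below it at 60 min. H3K4me3 had its own pseudocount and filter by the same rule. Positions are R64, 1-based. With 1 library per time no test was possible.

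Named genes were, among those whose mean level reached the median and with a relative 40 min level between the others, the 12 lowest and 12 highest changes; of each list with a median 0.1 or more from the median gene, the highest level and the extreme changes; *SET2*; and the strain's genes. The strain's genes as listed here leave out *LEU2* and *URA3*. Other names were chosen after their values were seen. Members and lists were chosen with earlier results of these data known. A planned search of promoter motifs was not run, since no sequence was at hand. Python 3.11.15, numpy 2.4.6, pandas 2.3.3, scipy 1.17.1 and matplotlib 3.10.9 were used, and the steps were tested on simulated data.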

Additional observations from a re-analysis of the deposited data

How the results depend on the processing

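The median change of 60 over 20 min was -0.0204 with equal totals, 0.13 scaled to the lowest 5% of genes, and 0.0484 for 40 over 20 min, against -0.23 as reported. Genes called lower numbered 129 for 40 over 20 min and 115 for 60 over 40 min, and genes called higher 130 and 73. With a pseudocount of 10% of the median, 138 genes were called higher and 168 lower, since it damps the changes of low genes. With the filter at 50%, 170 were called higher and 187 lower. For 40 over 20 min, 8 lists lay 0.1 or more from the median gene, against 14, and the glucose-repressed list was at -0.0154. For 60 over 40 min the strain's genes were at 0.0116, *SPI1* at 0.0376, *GLT1* at 0.13 and *NRD1* at -0.0512, on the other side from their change over both steps. So were, among named genes not called, *PGI1*, *GAL2*, *ACH1*, *HIS3*, *TOR1*, *RPS8B*, *HHO1*, *SET2*, *MDH2* and *PMA1* for that step and *IME1*, *RPL24B*, *SPT15* and *HOF1* for 40 over 20 min. Under the other settings, namely no pseudocount, a pseudocount of 10%, no filter, a filter at 50%, overlapping genes left out and both scalings, list medians and named genes kept their sign, apart from *HHO1* with no filter. Sizes moved more: with the filter at 50% the stress list median was 0.0191 against 0.16 and that of hexose transporters 0.397 against 0.25. With the pseudocount of 10%, *SPI1* at -0.365 and *GLT1* at -0.498 were no longer called lower, and the amino acid list median was 0.0988; with no filter that of the strain's genes was -0.0823. No paired analysis was possible because each mark and time has 1 library. Leaving out a replicate was not possible for the same reason. The unknown depth limits what low genes can show.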
